A study of Rattus norvegicus with 6 samples.

Results

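Actin and tropomyosin isoform genes were followed in rat heart cells given an siRNA against eIF3m, a subunit of eukaryotic translation initiation factor 3, the complex that helps to load the small ribosomal subunit onto mRNA. The 10 genes were taken by symbol, the 6 conventional actins (Acta1, Acta2, Actb, Actc1, Actg1 and Actg2) and the 4 tropomyosins (Tpm1 to Tpm4), and all 10 were among the 31038 gene rows of the files. The labels name the cells NRVM, do not spell the name out, and give embryonic rat myocardium as their source; the strain is not given in the sources used here. All 6 samples were treated with an siRNA, 3 with a control siRNA (siNT in the titles) and 3 with one against eIF3m (si3m), and the medium was DMEM with fetal serum in both groups. The protocol text also describes a dexamethasone, isobutylmethylxanthine and insulin regime, without saying whether these cells were kept in it. The labels do not tell whether replicates were grown separately, and p-values below therefore describe only the spread between these libraries, which may be technical.

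Actin is the globular protein that polymerises into the filaments of the cytoskeleton and of the sarcomere. Muscle makes its own isoforms, skeletal alpha (Acta1), cardiac alpha (Actc1), smooth muscle alpha (Acta2) and smooth muscle gamma (Actg2), beside the cytoplasmic beta and gamma forms (Actb and Actg1) found in nearly all cells. Tropomyosins are coiled-coil dimers that lie along the filament, set which myosins and other proteins can reach it and, in striated muscle, pass on the troponin signal. Tpm1 and Tpm2 give the main muscle forms as well as cytoplasmic ones, whereas Tpm3 and Tpm4 are known chiefly for cytoplasmic forms and Tpm3 also for slow skeletal muscle. Each tropomyosin gene makes several proteins through alternative promoters and exons, and a count per gene cannot separate them.

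Total counts ran from 7437285 to 8603602 in the controls and were 10061575, 2156186 and 7901395 in eIF3m replicates 1, 2 and 3. Eif3m, the targeted gene, was lower in all 3 eIF3m libraries (83.9 to 91.7 CPM) than in the controls (135.5 to 140.6 CPM), where CPM is counts per 1000000 of the TMM-scaled library total. eIF3m replicate 1 stood apart. Its 6 erythroid markers summed to 6216 CPM, against 51.1 and 229 in the other eIF3m libraries and 31.7 to 77.3 in controls. Its 8 endothelial markers summed to 185 CPM, against 31.1 to 48.7 in the other 5 libraries. Of 12 cardiomyocyte markers, Tnnt2 (366 CPM in controls) and Pln (24.99 CPM) passed the filter on low counts, and the other 10, among them Myh6, Myh7, Myl2, Tnni3 and Ryr2, had control means of 1.25 CPM or less, with Myl3 at 0 counts in all libraries. Most of the defining markers of the labelled cell type were thus at or near 0.

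The deposited counts do not hold the promoters, but RefSeq sequences for the rat assembly GRCr8 were matched by symbol for 9 of the 10 genes, all but Actb (11 windows, since Tpm3 has 3). Each window holds 250 bases before and 50 bases after an annotated transcription start, read 5′ to 3′ on the gene's strand. The counts were made on another build, rn6, so these coordinates are not those of the files. Below are the windows of the 3 actins that fell and carry a match to the CArG box, the element bound by serum response factor, or to a looser form of it (Acta1, Acta2 and Actg1), that of cardiac actin, Actc1, and that of Tpm2, the tropomyosin that fell most, which carries none. Capitals mark CArG boxes, CArG-like boxes and CATTCC or its reverse complement GGAATG, the core bound by TEAD factors. They lie at chr19:68784145-68784444 (Acta1), chr1:241172454-241172753 (Acta2), chr10:106120902-106121201 (Actg1), chr3:121271778-121272077 (Actc1) and chr5:62575677-62575976 (Tpm2), all on the minus strand.
Acta1: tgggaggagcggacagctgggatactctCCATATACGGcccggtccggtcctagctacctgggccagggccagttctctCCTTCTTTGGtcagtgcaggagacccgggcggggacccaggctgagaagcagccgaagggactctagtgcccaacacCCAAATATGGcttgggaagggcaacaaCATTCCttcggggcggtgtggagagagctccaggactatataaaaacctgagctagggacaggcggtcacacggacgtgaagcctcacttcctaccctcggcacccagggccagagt
Acta2: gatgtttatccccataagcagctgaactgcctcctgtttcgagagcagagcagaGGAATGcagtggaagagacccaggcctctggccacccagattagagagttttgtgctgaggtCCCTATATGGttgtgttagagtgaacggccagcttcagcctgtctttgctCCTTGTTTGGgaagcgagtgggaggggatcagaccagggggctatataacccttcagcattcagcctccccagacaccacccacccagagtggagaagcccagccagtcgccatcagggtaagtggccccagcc
Actg1: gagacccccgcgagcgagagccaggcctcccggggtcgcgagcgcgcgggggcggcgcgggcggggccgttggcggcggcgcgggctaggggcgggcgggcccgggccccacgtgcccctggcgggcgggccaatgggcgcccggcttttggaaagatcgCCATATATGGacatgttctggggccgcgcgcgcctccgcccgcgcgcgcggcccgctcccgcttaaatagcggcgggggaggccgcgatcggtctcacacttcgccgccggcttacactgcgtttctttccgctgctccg
Actc1: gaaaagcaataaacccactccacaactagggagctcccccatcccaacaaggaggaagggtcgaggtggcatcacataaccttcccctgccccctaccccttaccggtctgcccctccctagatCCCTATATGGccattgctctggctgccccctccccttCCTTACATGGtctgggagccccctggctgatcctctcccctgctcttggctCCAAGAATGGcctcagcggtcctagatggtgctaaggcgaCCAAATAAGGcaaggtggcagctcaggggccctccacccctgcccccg
Tpm2: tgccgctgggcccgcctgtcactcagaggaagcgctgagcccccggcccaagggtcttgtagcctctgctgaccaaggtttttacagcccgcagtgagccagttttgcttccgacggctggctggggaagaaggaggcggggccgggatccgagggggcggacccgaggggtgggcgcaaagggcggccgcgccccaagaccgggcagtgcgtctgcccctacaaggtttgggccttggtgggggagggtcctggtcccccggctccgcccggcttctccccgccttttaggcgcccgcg

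A CArG box was counted only where all 6 core bases were A or T, and a CArG-like box where at least 5 of the 6 were. The rule reads the same on both strands, and every CArG box is also counted as CArG-like. A full CArG box was found once each in Acta1 (CCAAATATGG, from -94 to -85), Actg1 (CCATATATGG, from -90 to -81) and Actc1 (CCAAATAAGG, from 3 to 12), and 1.64% of all 33469 windows of the same length in the table held one. CArG-like boxes numbered 3 in Acta1, 2 in Acta2, 4 in Actc1 and 1 in Actg1, and 9.42% of all windows held at least 1. CATTCC or its complement was found in Acta1 (from -67 to -62), Acta2 (from -196 to -191) and Tpm1 (from -31 to -26), and in 14.2% of all windows, without overlap with a CArG-like box in these genes. None of the 3 motifs lay in the windows of Actg2, Tpm2 or Tpm4, which says only that these letters are not in these windows. Of the 3 Tpm3 windows, 2 held a CArG-like box. The motifs were chosen after the sequences had been seen, and a match is a description of the letters.

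**Figure D1:**
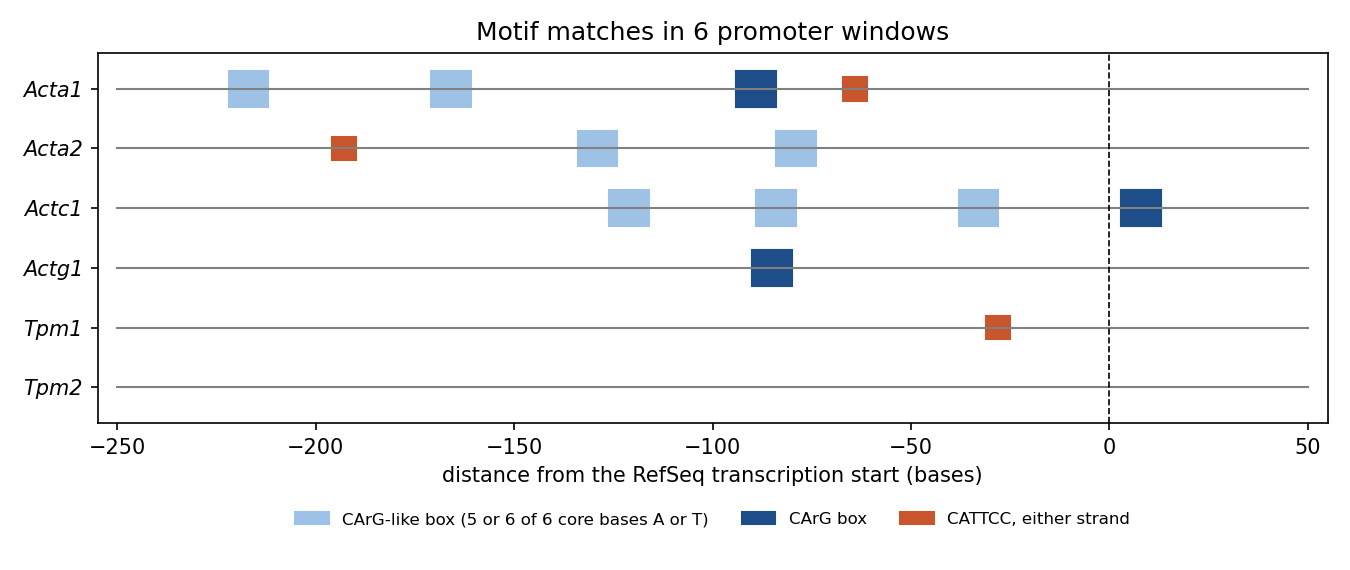
Positions of motif matches in the windows of 6 genes, against distance from the RefSeq transcription start in bases (dashed line at the start). Dark blue blocks are CArG boxes, light blue blocks CArG-like boxes and orange blocks CATTCC on either strand; Acta1 and Acta2 carry CArG-like and CATTCC matches, and Tpm2 carries no match.

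Of the 9 members that could be tested, 8 fell with the eIF3m siRNA and 0 rose (edgeR quasi-likelihood test, Benjamini-Hochberg adjusted p under 0.05 over the 12724 genes tested). Among all genes tested, 21.2% fell, 17.4% rose and 38.7% changed in either direction. The 8 were the 5 tested actins and 3 of the 4 tropomyosins, Tpm1, Tpm2 and Tpm4. The falls were graded: skeletal actin fell by 70.8% and Tpm4 fell by 10.1%. The groups did not overlap for any of the 9 tested members, against 48.6% of all genes tested. The median log2 fold change of the 9 was -0.51, and that of all genes tested was 0.013. In bulk RNA, fewer cells of a type and less RNA per cell cannot be told apart.

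**Figure D2:**
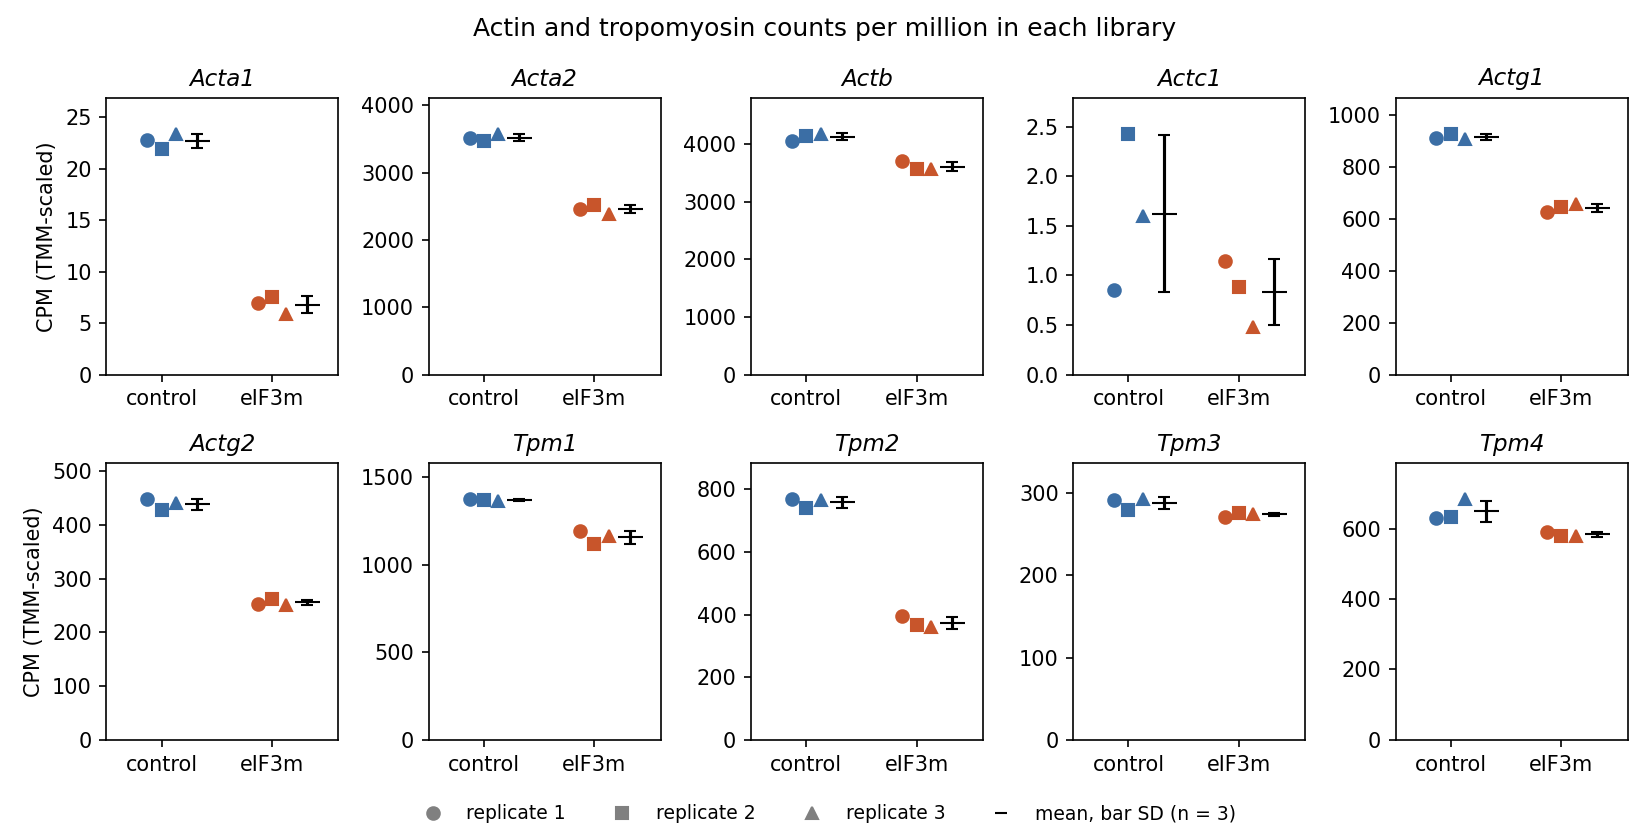
TMM-scaled CPM of each of the 10 genes in the 6 libraries (blue, control siRNA; orange, eIF3m siRNA; marker shape, replicate), with the mean and SD of 3 libraries as black bars and every axis starting at 0. The groups separate for all genes but Actc1, which lay between 0.480 and 2.42 CPM, and the gap is widest in proportion for Acta1.

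Among the muscle actins, Acta1, the actin of the skeletal sarcomere and a gene re-expressed in stressed heart, had the lowest fold change. The control libraries, in the order of their replicate numbers 1, 2 and 3, gave 22.8, 21.9 and 23.4 CPM, and the eIF3m libraries, in the same order as for all values that follow, gave 6.96, 7.51 and 5.88 CPM. Every eIF3m library was below every control library by a wide margin. The mean was 22.7 ± 0.704 CPM in controls and 6.78 ± 0.829 CPM after the eIF3m siRNA (SD, n = 3 each). This is a log2 fold change of -1.78 ± 0.14 SE (edgeR adjusted p = 9.48e-08), rank 26 of 12724 from the lowest. These values rest on 161 to 190 counts per control library and on 73, 17 and 49 counts in the eIF3m libraries. Acta1 thus had the fewest reads of the tested members.

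Actg2, the gamma actin of visceral smooth muscle, was at 447.6, 427.7 and 439.9 CPM in controls and at 253.8, 261.9 and 251.7 CPM after the eIF3m siRNA. It fell by 41.7% (log2 fold change -0.78 ± 0.04 SE, adjusted p = 1.58e-09), with a spread of 2.29% of the mean among controls and 2.10% among eIF3m libraries. Acta2, the alpha actin of vascular smooth muscle and of myofibroblasts, was read 5697 to 29077 times per library. Its level was 3517, 3468 and 3574 CPM in controls and 2468, 2516 and 2393 CPM in eIF3m libraries. It fell by 30.1% (log2 fold change -0.52 ± 0.017 SE, adjusted p = 4.84e-12). For both smooth muscle actins the lowest control library lay far above the highest eIF3m library.

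Cardiac actin, Actc1, the main actin of the heart muscle sarcomere, was near the limit of detection in both groups. Its reads numbered 6, 19 and 13 in controls and 12, 2 and 4 in eIF3m libraries, or 0.849, 2.42 and 1.598 CPM and 1.14, 0.883 and 0.480 CPM. The groups overlapped, and the gene did not pass the filter on low counts, so it was not tested. A floor of 3 counts corresponded to between 0.286 and 1.32 CPM across libraries, covering counting error alone, and eIF3m replicate 2 lay under it. A difference in Actc1 was not detectable at this depth.

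The cytoplasmic actins fell too, and not by the same amount. Actb, the beta actin commonly used as a reference gene in PCR and blots, was at 4060, 4148 and 4173 CPM in controls and at 3701, 3560 and 3568 CPM in eIF3m libraries. It fell by 12.5% (log2 fold change -0.19 ± 0.015 SE, adjusted p = 7.30e-08). Actg1, the gamma actin, was at 909.9, 926.1 and 905.5 CPM in controls and at 625.0, 645.6 and 655.3 CPM in eIF3m libraries. It fell by 29.8% (log2 fold change -0.51 ± 0.03 SE, adjusted p = 2.83e-09), close to the value of Acta2. Within each library the log2 ratio of Actg1 to Actb counts was -2.16, -2.16 and -2.20 in controls and -2.57, -2.46 and -2.44 in eIF3m libraries, so the difference between these 2 genes does not depend on how libraries were scaled. The RefSeq table of GRCr8 names 10 pseudogenes after Actb and 11 after Actg1, and of its 30 pseudogenes named after the 10 genes, 1, named after Actg1, has a row in the files under another symbol, with 0 counts. The counting of reads that fit several copies is not stated in any source used here, and the levels of Actb and Actg1 are uncertain to that extent.

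Among tropomyosins Tpm2 fell most; it encodes beta tropomyosin of skeletal and smooth muscle. It was at 768.4, 739.4 and 767.2 CPM in controls and at 396.3, 367.0 and 359.4 CPM in eIF3m libraries. No eIF3m library came near a control library. It fell by 50.6% (log2 fold change -1.02 ± 0.04 SE, adjusted p = 3.91e-11), rank 204 of 12724 from the lowest. Tpm1, the alpha tropomyosin gene that also gives the main cardiac form, was at 1375, 1370 and 1367 CPM in controls and at 1192, 1120 and 1163 CPM in eIF3m libraries. It fell by 15.4% (log2 fold change -0.24 ± 0.02 SE, adjusted p = 1.44e-06), and its controls were the tightest of all 10 genes, with an SD of 0.295% of the mean.

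Tpm4 and Tpm3, the tropomyosins of cytoplasmic filaments, had the smallest fold changes. Tpm4 was at 630.8, 633.7 and 682.8 CPM in controls and at 591.4, 578.9 and 579.3 CPM in eIF3m libraries, with control replicate 3 the highest. It fell by 10.1% (log2 fold change -0.15 ± 0.04 SE, adjusted p = 0.00351). That call was lost with upper-quartile scaling (-0.086, adjusted p = 0.0702), with no scaling factors (-0.0095, adjusted p = 0.853) and with all libraries thinned to the smallest (-0.11, adjusted p = 0.0568), and its adjusted p ranged up to 0.853 over its alternatives. Tpm3 was at 291.0, 279.1 and 292.2 CPM in controls and at 271.3, 275.6 and 274.5 CPM in eIF3m libraries. Its log2 fold change of -0.071 ± 0.045 SE did not pass (adjusted p = 0.232), although the groups did not overlap, and it turned to 0.074 with no scaling factors. A miss of the threshold does not show that Tpm3 was unaltered.

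Scaling sets how the small changes read. With no scaling factors the median log2 fold change of all genes tested moved from 0.013 to 0.16, and the split of calls went from 2220 higher and 2700 lower to 4126 higher and 1684 lower. Under that setting 7 of the 9 tested members were lower by the test, Actb at -0.049 (adjusted p = 0.00723), Tpm1 at -0.097, Acta2 at -0.37, Actg1 at -0.36, Actg2 at -0.63, Tpm2 at -0.87 and Acta1 at -1.63. All 9 lay below the median of all genes in both settings. Over 16 alternatives 6 to 8 members were lower and 0 higher. The count of 6 came from leaving out the 20 most abundant genes, which include Acta2 and Actb. Leaving out each library in turn left 8 lower each time. Without eIF3m replicate 1, the library with the largest erythroid signal, Acta1 was at -1.84, Tpm2 at -1.06, Actg2 at -0.77 and Acta2 at -0.52. In the same fit Actg1 was at -0.48, Tpm1 at -0.26, Actb at -0.21 and Tpm4 at -0.16.

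**Figure D3:**
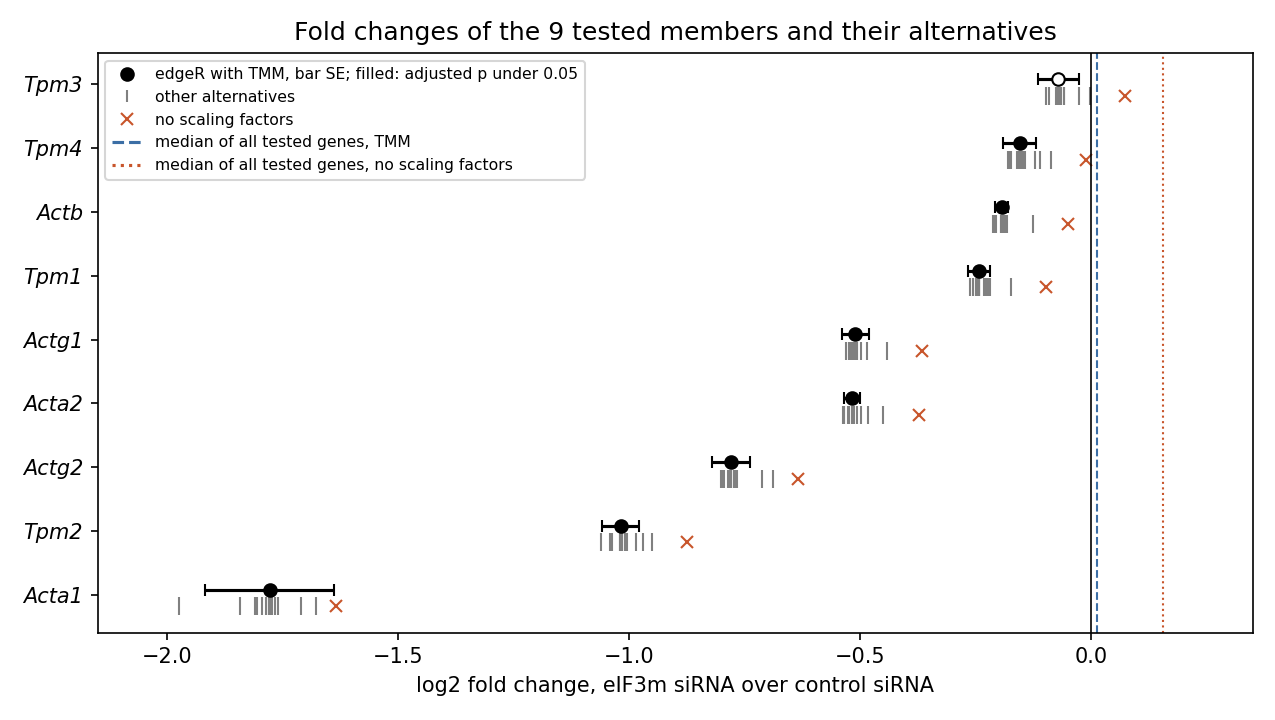
Log2 fold change of eIF3m siRNA over control siRNA for the 9 tested members (circles with SE bars; filled, adjusted p under 0.05), with grey ticks for the alternatives and orange crosses for no scaling factors. Blue dashed and orange dotted lines give the median of all tested genes with TMM (0.013) and with no scaling factors (0.16); all circles and ticks lie left of the blue line, and the crosses lie left of the orange line.

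Because genes were counted without a length, levels of different isoforms are not compared with each other here, but the ratio of 2 genes in the same library can be compared between groups free of any scaling. By fold change the order ran from Acta1 through Tpm2, Actg2, Acta2, Actg1, Tpm1, Actb and Tpm4 to Tpm3. The within-library ratios of 5 of 8 neighbouring pairs did not overlap between groups. That order was taken from the fold changes of these same libraries, so the sign of each change follows from it. These separations are a description and not a test, and the share over other pairs of genes was not computed. Acta2 and Actg1 were not separated, with a change in their log2 ratio of -0.008, nor were Actb and Tpm4 (-0.040) or Tpm4 and Tpm3 (-0.084). For the 5 other pairs the log2 ratio of the first gene to the second changed by -0.73 (Acta1 to Tpm2), -0.24 (Tpm2 to Actg2), -0.26 (Actg2 to Acta2), -0.27 (Actg1 to Tpm1) and -0.049 (Tpm1 to Actb).

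The summed counts of the 4 muscle actins, relative to those of the 2 cytoplasmic actins, were lower in every eIF3m library. The log2 ratio was -0.32, -0.37 and -0.33 in controls, against -0.66, -0.59 and -0.67 after the eIF3m siRNA. The difference was -0.30 with no overlap. It does not hold for each muscle actin against each cytoplasmic one. The log2 ratio of Acta2 to Actg1 changed by -0.008, with overlap between groups. Relative to Actb, the changes were -0.32 for Acta2 and -0.32 for Actg1. Acta1 and Actg2 fell relative to Acta2 (-1.23 and -0.26). The log2 ratio of Tpm1 and Tpm2 to Tpm3 and Tpm4 went from 1.22, 1.21 and 1.13 to 0.88, 0.80 and 0.83, a difference of -0.35, also with no overlap. Within these genes, the log2 ratio of Tpm2 to Tpm1 changed by -0.78. That of Tpm4 to Tpm1 changed by 0.089 with overlap between groups, and that of Tpm3 to Tpm1 by 0.17. For each of the 2 ratios of summed counts the exact two-sided permutation test gave p = 0.10. That is the smallest that 3 libraries against 3 allow, and adjusting over the 2 leaves 0.10. Averaging log2 CPM over the tested genes, which leaves out Actc1, gave -0.66 and -0.52. Each gene weighs the same there, so Acta1 (log2 fold change -1.78), with few reads, counts as much as Acta2. These values are larger in size than the sums, in which Acta2 and Actb, and Tpm1 and Tpm4, hold most of the reads.

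As shares of reads, the 6 actins took 0.858% ± 0.00541 of a control library and 0.733% ± 0.00557 of an eIF3m library, and the 4 tropomyosins 0.292% ± 0.00326 and 0.251% ± 0.00485 (SD, n = 3 per group). Within the actin reads, the share of Actb was 45.7% ± 0.401 in controls and 51.8% ± 0.779 in eIF3m libraries. The share of Acta2 was 39.0% ± 0.388 and 35.2% ± 0.634, and that of Actg2 4.86% ± 0.124 and 3.67% ± 0.0747. Actb therefore held a larger part of a smaller total. Within the tropomyosin reads, Tpm2 had 24.7% ± 0.309 in controls and 15.7% ± 0.525 in eIF3m libraries, while the shares of Tpm1 (44.7% ± 0.695 and 48.5% ± 0.578), Tpm4 (21.2% ± 0.711 and 24.4% ± 0.306) and Tpm3 (9.38% ± 0.131 and 11.5% ± 0.358) were higher. These are shares of reads, not of molecules, and apart from Actc1 no share overlapped between the groups.

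**Figure D4:**
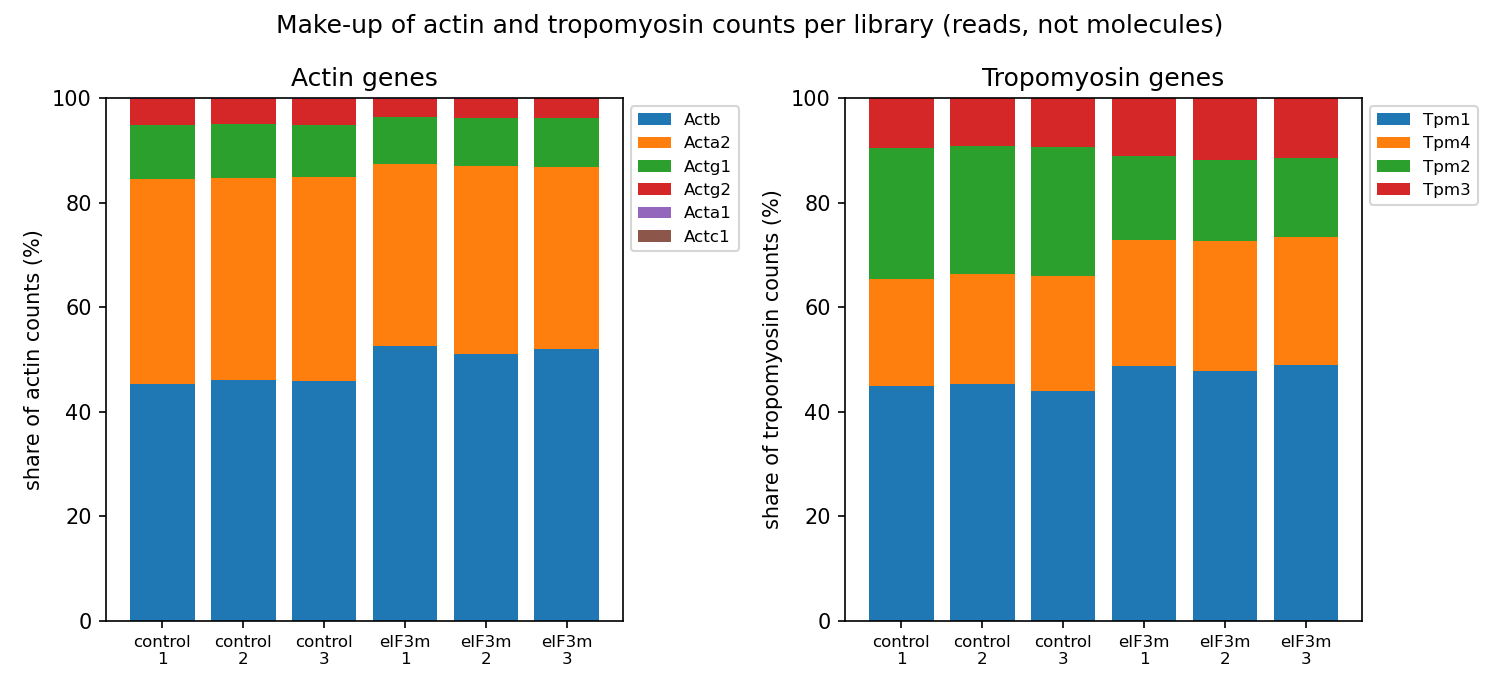
Stacked bars of each gene's share of actin counts (left) and tropomyosin counts (right), in percent, for the 3 control and 3 eIF3m libraries. The Actb segment is 45.3% to 46.1% in controls and 50.9% to 52.5% in eIF3m libraries, and the Tpm2 segment is 24.5% to 25.1% and 15.1% to 16.2%.

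The proteins that build, cap, turn over and bundle actin filaments were read from 8 lists of 141 genes written with earlier results of these data known. Of these, 137 were in the files and 116 were tested. In all, 46 fell, 12 rose and 58 did not pass, beside 21.2% of all genes lower and 17.4% higher. Among nucleators and elongators, which start filaments, 13 fell and 2 rose of 26 tested, with a median log2 fold change of -0.22. Lmod1, a leiomodin of smooth muscle, fell from 125 ± 7.60 to 60.7 ± 2.67 CPM (-1.04 ± 0.06 SE), and Lmod3, the leiomodin of skeletal muscle, from 21.3 ± 2.84 to 3.77 ± 1.36 CPM (-2.38 ± 0.21 SE). Actr2 (-0.34) and Arpc4 (-0.39), subunits of the Arp2/3 complex that starts branched filaments, also fell. The 2 that rose were Wasf1, an activator of that complex (0.55 ± 0.10 SE), and Spire1, a nucleator (0.24 ± 0.08 SE). Spire1 passed in the full comparison with adjusted p = 0.0346. It did not pass without control replicate 1 (0.23), 2 (0.25) or 3 (0.23) or without eIF3m replicate 2 (0.23) or 3 (0.15). In each of these, and with DESeq2, limma-voom or thinned libraries, 1 gene of the list rose, and with no scaling factors 5 rose.

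Of 11 filament end caps tested, 3 fell and 0 rose, beside 21.2% of all genes lower and 17.4% higher. Those that fell were Eps8 (-0.43 ± 0.05 SE), Capg (-0.23 ± 0.05) and Capzb, the beta subunit of capping protein (-0.21 ± 0.05). With no scaling factors Capg (-0.088) and Capzb (-0.067) did not pass, nor did Capzb with thinned libraries (-0.17). With no scaling factors 1 end cap was lower and 1 higher, and 1 was higher also with upper-quartile scaling and with no filter. Tropomodulins, which cap the slow-growing filament end, were not among those past the threshold in the edgeR fit. Tmod3 was at 0.13 ± 0.07 SE (adjusted p = 0.129), Tmod1 at -0.041 ± 0.43 and Tmod4 at -0.53 ± 0.32. Tmod1 and Tmod4 had few reads, with control means of 1.63 and 2.74 CPM. Of 19 genes of monomer binding and turnover, 11 fell and 5 rose. Cap1 (-0.52 ± 0.04 SE), Dstn, destrin (-0.54 ± 0.04), and Cfl1, cofilin (-0.34 ± 0.03), which free monomers from old filaments, fell, and so did Pfn1, profilin, which feeds monomers to growing ends (-0.25 ± 0.04). Tmsb10, a thymosin that holds monomers, rose from 1577 ± 60.5 to 2005 ± 76.5 CPM (0.35 ± 0.03 SE, adjusted p = 1.61e-07). Limk1, a kinase that inactivates cofilin (0.87 ± 0.09), and Ssh1, a phosphatase that reactivates it (0.34 ± 0.06), also rose. Their relatives went otherwise: Limk2 (-0.52 ± 0.07) and Ssh3 (-0.22 ± 0.05) fell, and Ssh2 did not pass (0.20 ± 0.10). The last that rose were Twf2, a twinfilin (0.65 ± 0.23), and Tmsb4x (0.072 ± 0.02). Limk1, Limk2, the Ssh genes, Twf2, Tmsb4x, Pfn1 and the tropomodulins were named after their values were seen. Twf2 did not pass without control replicate 1 (0.71), 2 (0.58) or 3 (0.64) or eIF3m replicate 1 (0.46) or 2 (0.62), nor with DESeq2 (0.65, adjusted p = 0.0833) or no filter (0.63, adjusted p = 0.0589), and with thinned libraries it stood at 0.22 (adjusted p = 0.692). Tmsb4x did not pass without control replicate 1 (0.062) or 2 (0.059) or eIF3m replicate 3 (0.070). Nor did it pass with no filter (0.052, adjusted p = 0.231) or with the replicate number as a block (0.072, adjusted p = 0.0504). Without control replicate 1 or without control replicate 2, 3 genes of this list rose.

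Crosslinkers and anchors tie filaments to each other and to adhesions. Beside 21.2% of all genes lower and 17.4% higher, they counted 11 lower and 3 higher of 21, with a median of -0.16. The number higher was 5 with upper-quartile scaling and 8 with no scaling factors. Flna, filamin A, fell from 4282 ± 46.2 to 3057 ± 88.9 CPM (-0.49 ± 0.017 SE), the muscle filamin Flnc by 0.48, Actn4, a cytoplasmic alpha-actinin, by 0.78 and Pls3, plastin 3, by 0.68 on the log2 scale. Among those that rose were Evl (0.56 ± 0.10 SE) and Fscn1, the filopodial bundler fascin (0.26 ± 0.05). Evl is a relative of the elongation factor Vasp, which itself fell (-0.37 ± 0.05), and of Enah, which did not pass (0.079 ± 0.04). Vasp and Enah were named after their values were seen. Of the 6 tested genes of the calponin and caldesmon families, which sit on tropomyosin-coated filaments, 4 fell and 0 rose, with a median of -0.44. They were Cnn1 (-0.79 ± 0.06 SE), Tagln (-0.67 ± 0.03), Cald1 (-0.65 ± 0.03) and Cnn2 (-0.24 ± 0.05), the last of which did not pass with no scaling factors (-0.093).

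Among all genes tested, 21.2% fell and 17.4% rose. Of the genes that fold and modify actin, 15 of 19 were not past the threshold, 2 fell and 2 rose, with a median of -0.021. With no scaling factors 9 of them were higher. Of the chaperonin subunits, Cct3 fell by 0.29 on the log2 scale, and the prefoldin subunit Pfdn2 rose by 0.29, a call lost with thinned libraries (0.215). Of the MICAL enzymes, which oxidise and take apart filaments, Mical1 fell by 0.59 and Mical3 rose by 0.48. Among 10 tested genes of the wider actin fold, Actr1a and Actr1b, the filament subunits of dynactin, fell by 0.20 and 0.19, and neither passed with upper-quartile scaling (-0.13 and -0.13), with no scaling factors (-0.053 and -0.051) or with thinned libraries (-0.16 and -0.17). With no scaling factors 1 gene of that list was higher.

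Serum response factor and its cofactors drive many actin genes through CArG boxes, and the cofactors Mkl1 and Mkl2 are themselves governed by free actin monomers. Of the 4 tested genes, Srf, Mkl1, Mkl2 and Myocd, 0 rose and 0 fell in the edgeR fit. In that fit 0 were at an unadjusted p under 0.05, and 0 were called by DESeq2. Srf was at 169 ± 5.18 CPM in controls and 158 ± 13.7 CPM in eIF3m libraries (-0.12 ± 0.06 SE, adjusted p = 0.14). It passed with limma-voom (-0.15, adjusted p = 0.0317) and without eIF3m replicate 2 (-0.17, adjusted p = 0.0236), and turned to 0.029 with no scaling factors. Mkl1 was at -0.064 ± 0.06 SE, Mkl2 at 0.21 ± 0.30 and Myocd, myocardin, at -0.12 ± 0.09. Mkl1 turned to 0.0039 with upper-quartile scaling and 0.080 with no scaling factors, Myocd to 0.021 with no scaling factors, and Mkl2 to -0.025 without control replicate 1, over a range of -0.025 to 0.35 as each library was left out. The levels of the transcripts do not give the activity of their proteins.

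**Figure D5:**
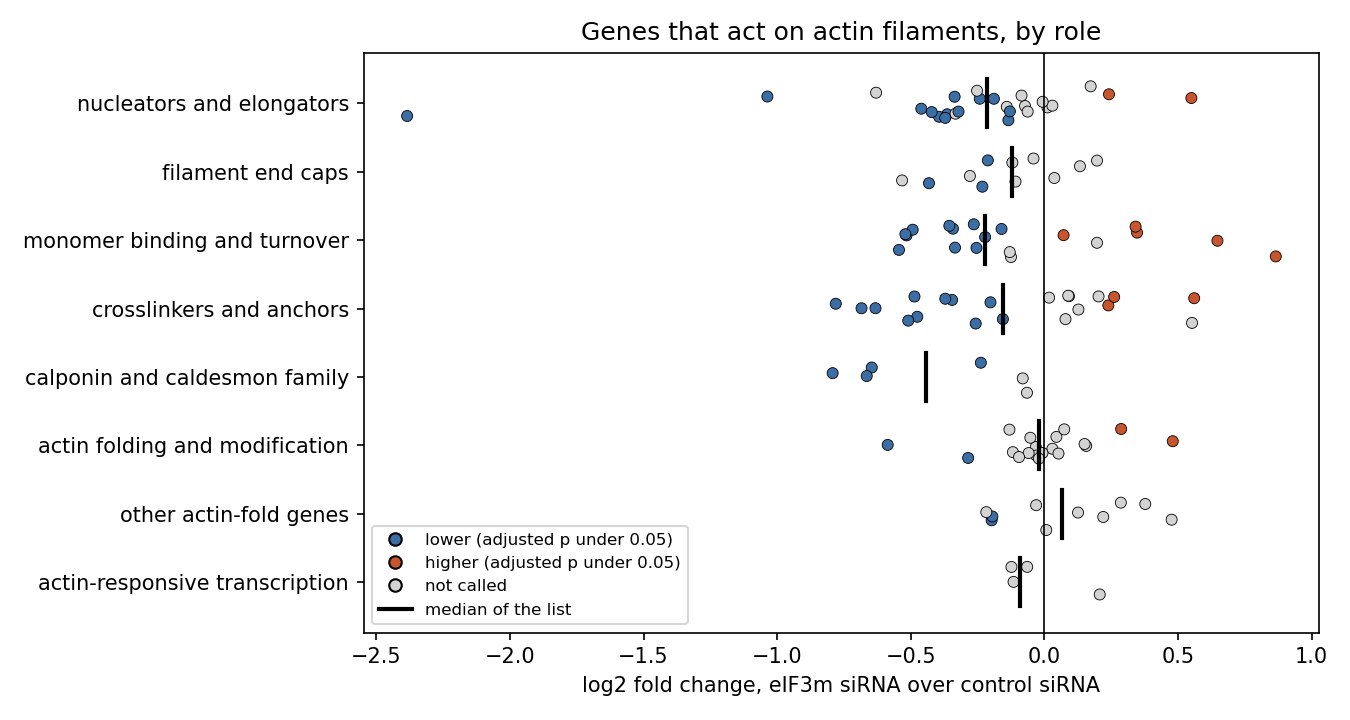
Log2 fold change of eIF3m siRNA over control siRNA for the 116 tested genes of 8 lists of actin partners, 1 point per gene (blue, lower; orange, higher, adjusted p under 0.05; grey, not past the threshold), with black bars for list medians; vertical jitter is for display. The calponin and caldesmon family has the lowest median (-0.44), and the folding list has its median at -0.021.

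Marker lists of other cell types were read in the same comparison, in which 21.2% of all genes tested were lower and 17.4% higher. Of smooth muscle and pericyte markers, 7 fell and 2 rose of 10 tested. Those that rose were Notch3 (1.39 ± 0.07 SE) and Cspg4 (1.18 ± 0.26 SE), named after their values were seen. The sum of the list was 2729 to 2816 CPM in controls and 1738 to 1835 CPM in eIF3m libraries, with Rgs5 at 0 in controls. That list shares Cnn1, Tagln, Lmod1 and Myocd with the lists above. Of skeletal myoblast markers, 7 fell and 0 rose of 8 tested, with sums of 143 to 153 and 81.2 to 93.2 CPM. The 2 tested cardiomyocyte markers fell, with list sums of 388 to 403 and 150 to 166 CPM. Of fibroblast markers, 4 rose and 3 fell of 8 tested, with sums of 17849 to 18297 and 18734 to 19547 CPM and Tcf21 at 0 in controls. Of those that rose, Dcn stood at 55.4 CPM in eIF3m replicate 1 and at 2.21 and 1.80 CPM in the other eIF3m libraries, against 0.983 to 1.28 CPM in controls, and Lum was also highest in replicate 1 (10.3 CPM). Without that library 3 fibroblast markers were higher and 4 lower, and Dcn did not pass (0.81, adjusted p = 0.241). Without it 6 skeletal myoblast markers were lower, and the smooth muscle counts were again 7 lower and 2 higher. Their part in the falls of the actins and tropomyosins was not tested. The erythroid, endothelial and Dcn values were largest in eIF3m replicate 1. Replicate 2 also had an erythroid sum of 229 CPM, above the 31.7 to 77.3 CPM of controls. Without eIF3m replicate 1 all 8 members that fell were still lower, with the values given above. Leaving it out does not take out the erythroid reads of replicate 2.

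The genes whose values ran closest to Acta1 over the 6 libraries were Slit3, Tgfb3 and Ces2g, among 10474 genes with a mean of at least 5 CPM. Likeness was the root mean square difference of log2 CPM after each gene was centred on its own mean, and it was 0.0875, 0.134 and 0.146, against a median of 0.848 over all those genes. For Actb, the member with the most reads, the closest were Maz, Dkc1 and Oaz1, at 0.0156, 0.0172 and 0.0191 against a median of 0.179. Their log2 fold changes were -1.61, -1.47 and -1.72 for the first 3 and -0.20, -0.20 and -0.19 for the last 3. The measure takes in the difference between groups, so similar fold changes follow from how these genes were picked.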

How the data were processed

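RNA was sequenced from 6 libraries, 3 per group, grouped by sample title. The authors deposited whole-number counts per gene symbol, with no normalisation, 1 file per library. The build is rn6 and the software featureCounts, HISAT2 2.2.1, Trimmomatic 0.40, limma and DESeq2, per the submitters' processing notes, which give no order or role. No source used here states the annotation, the strand setting or how multiply mapped reads were treated. In each file 27 rows whose symbols had become dates (0.203% to 0.216% of counts) were left out.

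The test was run on these counts with edgeR 4.0.16 (R 4.3.3): filterByExpr (minimum count 10, minimum total 15), TMM scaling and the quasi-likelihood F-test, two-sided, with Benjamini-Hochberg adjustment over 12724 genes. SE is the absolute log2 fold change over the square root of F. The fit was tested on simulated data, where the false share of calls lay above the nominal rate. Fewer genes changed there than were called here, so that share is not the error of these calls. Calls near the threshold are taken as less certain. Replicate pairs differed beyond counting noise (chi-square per degree of freedom from 1.78 to 8.73). Same-numbered libraries of the groups did not deviate together (correlations 0.029, -0.008 and 0.009), so the comparison carries no block. Alternatives used DESeq2 1.42.0, limma 3.58.1, other scalings, filters and depths, and each library left out.

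Members and lists were chosen with earlier results of these data known. All members were named, together with up to 4 called genes per partner list by lowest p and any called gene whose direction 3 or fewer of its list took. For Acta1 (the largest fold change) and Actb (the most reads) the 3 closest genes were also named. A gene that the rule would name is not reported here. Others are said to be chosen after their values were seen.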

Additional observations from a re-analysis of the deposited data

How the results depend on the processing

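Of 142 values of the 9 tested members under 16 alternatives, 138 kept their direction and side of the threshold, 3 lost the call (Tpm4, above) and 1 turned, Tpm3 with no scaling factors (0.074). The 20 most abundant genes include Acta2 and Actb, which therefore have no value there. The counts of genes past the threshold moved most with no scaling factors (4126 higher and 1684 lower) and with thinned libraries (1351 higher and 1782 lower), and leaving out 1 library gave 1692 to 2113 higher and 2336 to 2641 lower. Leaving out 1 library moved the actin ratio between -0.33 and -0.29 and the tropomyosin ratio between -0.37 and -0.33. Mean log2 CPM of the tested genes, without Actc1, in place of summed counts gave -0.66 and -0.52. With the replicate block (replicate numbers, which do not pair the cultures by label) 2123 genes were higher and 2632 lower, and 8 members were lower. With the replicate block the 2 ratios kept -0.30 and -0.35 (exact sign-flip p = 0.25, the smallest 3 pairs allow). Signs also turned for Srf (0.029), Mkl1 (0.080) and Myocd (0.021) with no scaling factors, for Mkl1 with upper-quartile scaling (0.0039) and for Mkl2 without control replicate 1 (-0.025; up to 0.35 as each library was left out). The cause was not tested. The 2156186 counts of eIF3m replicate 2 limit what can be seen of Acta1 and Actc1.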
